A study of Homo sapiens with 2 samples.

Results

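The transcripts of 10 cell surface glycoproteins of human pluripotent stem cells were compared between 2 libraries of H9 cells. H9 is an established line of human embryonic stem cells. One culture was given small interfering RNA against HNRNPA1 for 48 h (siHNRNPA1), and the other received a control RNA of that kind (sicontrol). HNRNPA1 encodes hnRNP A1, a protein that regulates splicing. Both libraries were messenger RNA libraries made from total RNA. The genes are PODXL, EPCAM, CD9, CD24, THY1, PROM1, ALPL, F11R, CD44 and SUSD2. They were taken by gene name from the deposited table, which gave 74 transcripts of 10 genes out of 95139 transcripts of 20263 genes. The labels tie 1 library to each condition. Another 6 columns of sample values in the table match no labelled sample, and these were not analysed here. With 1 library on each side, no test between the conditions was made and no spread between cultures is given. Intervals given below are exact at 95%, by Poisson for levels and by Clopper-Pearson for shares. They treat each estimated count as 1 independent read and cover counting error only.

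Surface glycoproteins are the antigens by which living pluripotent cells are recognised and sorted. Podocalyxin, the product of PODXL, carries the keratan sulfate-like glycans read by the TRA-1-60 and TRA-1-81 antibodies, and the alkaline phosphatase encoded by ALPL gives the enzyme stain used to score stem cell colonies. CD24, THY1 and ALPL proteins are held in the membrane by a glycosylphosphatidylinositol (GPI) anchor, whereas CD9 and PROM1 proteins span it several times. Several of these genes, CD44 above all, are known for transcripts that differ by splicing.

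The siHNRNPA1 library held 28147828 estimated counts and the sicontrol library 26680342. Of the transcripts in the table, 54.3% had a value above 0 in the siHNRNPA1 library and 59.3% in the sicontrol library. HNRNPA1 itself stood at 179.9 FPKM in siHNRNPA1 cells, against 662.7 FPKM in sicontrol cells. FPKM counts fragments relative to transcript length and library depth, and transcripts were added up to give a gene's FPKM. Each fold is log2((siHNRNPA1 + 1)/(sicontrol + 1)) of FPKM, which understates the change of low genes. Over the 11921 genes with a mean of at least 1 FPKM the median fold was -0.13, and the fold rose with the GC content of the leading transcript (Spearman's rho 0.58 across genes) and fell with its length (rho -0.46). Genes are not independent replicates. Because of these trends, folds are also given relative to the 100 genes nearest in level, GC content and length, whose median was subtracted. The part of GC content and length in the results was not tested.

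All 10 genes were measured, and 9 of them had a fold below 0, of which SUSD2 turned to 0.03 with median-ratio scaling. Among all genes kept, 54.8% had a fold below 0. Of the 10 genes, 2 were at least 2-fold lower in siHNRNPA1 cells, PODXL and PROM1. The background for that call was 21.9% of genes, so 2 of 10 lay close to it. None of the 10 was at least 2-fold higher, a call made for 12.4% of all genes. The median fold of the 10 was -0.45. After subtraction of the nearest genes, PODXL was still at least 2-fold lower and PROM1 was not, against a background of 8.35%. After the same subtraction 9 genes were below 0, F11R (0.06) being the exception, against 49.9% of all genes, and the median of the 10 was -0.32. In bulk RNA, fewer cells of a type and less RNA per cell cannot be told apart.

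**Figure D1:**
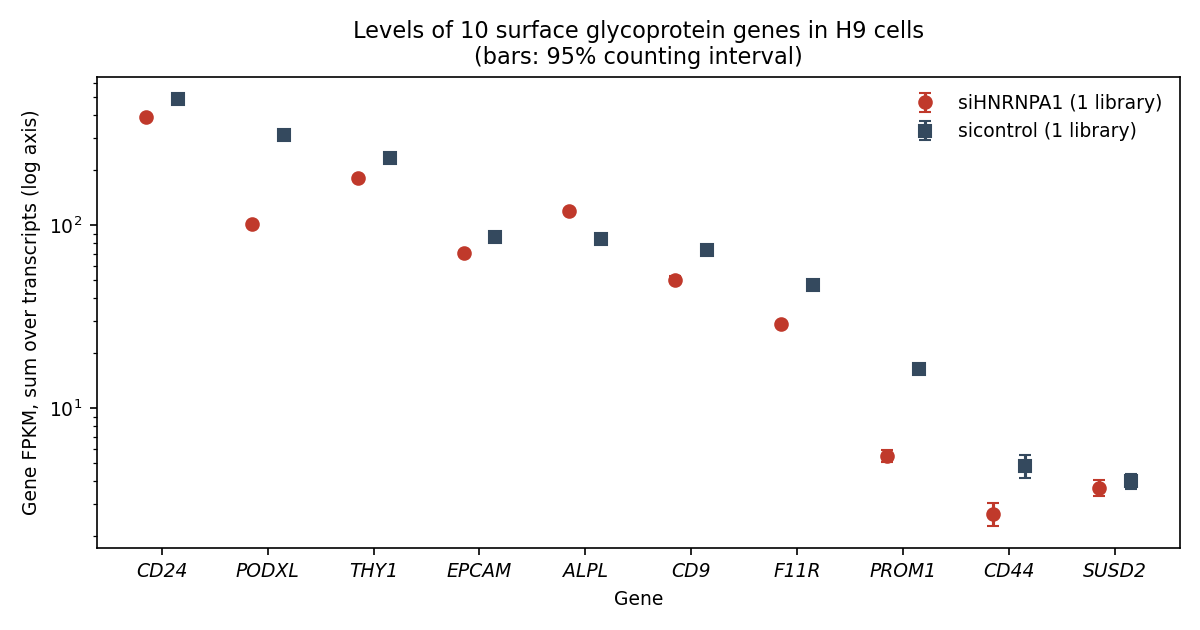
Gene FPKM of the 10 genes on a log axis in the siHNRNPA1 library and the sicontrol library; error bars are exact Poisson intervals at 95% from the estimated counts and cover counting error only. CD24 is highest in both libraries, PODXL stands at 101.7 FPKM in siHNRNPA1 cells and 311.6 FPKM in sicontrol cells, and ALPL alone is higher in siHNRNPA1 cells, though at -0.13 relative to its nearest genes.

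In siHNRNPA1 cells the genes ranked CD24, THY1, ALPL, PODXL, EPCAM, CD9, F11R, PROM1, SUSD2 and CD44 from highest to lowest FPKM, and no 2 neighbours had overlapping counting intervals. In sicontrol cells the order was CD24, PODXL, THY1, EPCAM, ALPL, CD9, F11R, PROM1, CD44 and SUSD2, in which the intervals of EPCAM and ALPL overlapped, as did those of CD44 and SUSD2. PODXL thus stood at rank 4 in siHNRNPA1 cells and rank 2 in sicontrol cells.

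**Figure D2:**
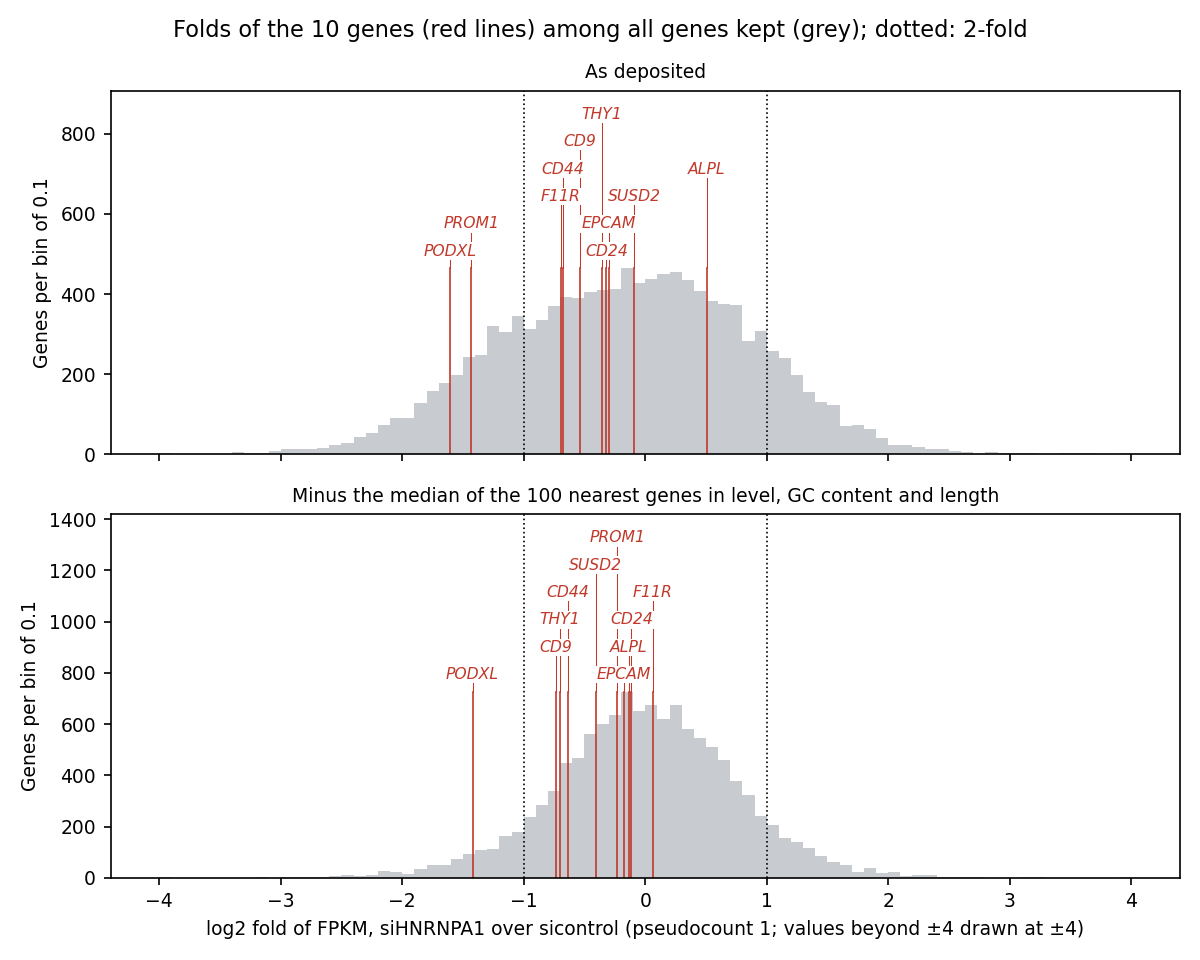
Histograms of the log2 fold of FPKM, siHNRNPA1 over sicontrol, for all genes kept (grey) with the 10 surface genes as red lines; the upper panel shows folds as deposited and the lower panel folds minus the median of the 100 nearest genes. PODXL (-1.61) and PROM1 (-1.43) lie beyond the 2-fold line in the upper panel, and PODXL (-1.42) alone of the 10 does so in the lower panel.

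PODXL (ENSG00000128567, chromosome 7, minus strand, 131500262 to 131556609 on GRCh38) encodes podocalyxin, a heavily glycosylated sialomucin related to CD34. It stood at 101.7 FPKM (100.3 to 103.2) in siHNRNPA1 cells and 311.6 FPKM (308.8 to 314.4) in sicontrol cells, so the level under siHNRNPA1 was 32.6% of that in the control library. The fold was -1.61, and 7.90% of all genes kept had a lower one. After subtraction of the nearest genes it was -1.42, with 3.48% of genes lower. Its leading transcript has a GC content of 51.4% and the nearest genes had a median fold of only -0.18.

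All 3 listed PODXL transcripts were at least 2-fold lower in siHNRNPA1 cells, by unequal amounts. PODXL-202 stood at 5.75 FPKM in siHNRNPA1 cells and 81.3 FPKM in sicontrol cells, a fold of -3.61. PODXL-201 stood at 2.74 FPKM in siHNRNPA1 cells and 17.6 FPKM in sicontrol cells, a fold of -2.31. PODXL-203 stood at 93.2 FPKM in siHNRNPA1 cells and 212.7 FPKM in sicontrol cells, a fold of -1.18. PODXL-203 therefore held 91.7% of the gene's FPKM in siHNRNPA1 cells and 68.3% in sicontrol cells, and PODXL-202 held 5.65% in siHNRNPA1 cells and 26.1% in sicontrol cells. As shares of estimated counts the differences were smaller, with PODXL-203 at 97.0% in siHNRNPA1 cells and 86.4% in sicontrol cells and PODXL-202 at 2.04% in siHNRNPA1 cells and 11.2% in sicontrol cells. GENCODE annotates PODXL-201 and PODXL-202 as protein-coding and PODXL-203 as a target of nonsense-mediated decay. The 2 protein-coding transcripts together held 8.49 FPKM in siHNRNPA1 cells and 98.9 FPKM in sicontrol cells, a fold of -3.40, with 585 estimated counts in siHNRNPA1 cells and 6402 in sicontrol cells.

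In number of bases, PODXL-203 differs most from the other 2 transcripts. PODXL-203 has 6170 bases in 7 exons. It keeps a 336-base intron at chr7:131509029-131509364, and its coding sequence of 324 codons ends at a stop codon inside it. It also runs 3869 bases past the 3' end of the other 2 transcripts, to 131500262. How the counting divided reads between the long 3' end and the retained intron was not analysed here. PODXL-202 has 558 codons and PODXL-201 has 526. A 96-base coding exon at chr7:131510236-131510331 is part of PODXL-202 and is absent from both PODXL-201 and PODXL-203. The coding part of the retained intron (chr7:131509317-131509364, minus strand, GRCh38) is printed because it sets PODXL-203 apart, and capitals mark the stop codon.
PODXL-203 retained intron: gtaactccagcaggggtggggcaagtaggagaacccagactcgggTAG
The division of reads between the 3 PODXL transcripts by the authors' counting is an estimate.

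CD24 (ENSG00000272398, chromosome 6, minus strand, 106969831 to 106975627) encodes a short mucin-like protein on a GPI anchor. It was the highest of the 10 genes, with 390.0 FPKM (385.0 to 395.0) in siHNRNPA1 cells and 486.7 FPKM (480.5 to 493.0) in sicontrol cells, a fold of -0.32. Its estimated counts were almost level, with 23465 in siHNRNPA1 cells and 23219 in sicontrol cells, which is a log2 CPM ratio of -0.06 (-0.09 to -0.04). The difference in FPKM came from the shorter of its 2 main transcripts. CD24-206, of 586 bases, stood at 89.9 FPKM in siHNRNPA1 cells and 195.4 FPKM in sicontrol cells. CD24-201, of 2180 bases, stood at 284.8 FPKM in siHNRNPA1 cells and 275.7 FPKM in sicontrol cells. CD24-201 made up 73.0% of the gene's FPKM in siHNRNPA1 cells and 56.7% in sicontrol cells, a difference below the 20 percentage points used here.

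CD24-206 lacks 310 bases inside CD24-201 and ends 1261 bases earlier. Its annotated coding sequence has 37 codons, against 80 in CD24-201. The coding sequence of CD24-201 (chr6:106971664-106974646, minus strand, GRCh38, joined over its exons and without the stop codon) is printed because the spliced-out part removes most of it. Capitals mark the 171 coding bases that are absent from CD24-206.
CD24-201 coding sequence: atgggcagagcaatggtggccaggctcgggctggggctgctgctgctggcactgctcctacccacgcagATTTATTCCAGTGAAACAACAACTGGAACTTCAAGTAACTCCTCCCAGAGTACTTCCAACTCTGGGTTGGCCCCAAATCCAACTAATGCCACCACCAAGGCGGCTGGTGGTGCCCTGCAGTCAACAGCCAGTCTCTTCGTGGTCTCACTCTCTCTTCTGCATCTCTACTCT
Of the 50-base stretches of CD24-201, 7.98% also occur in transcripts of 100 other genes, so the division of reads over these stretches is uncertain.

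EPCAM (ENSG00000119888, chromosome 2, plus strand, 47345158 to 47387601) encodes an epithelial adhesion molecule that is shed by proteases. It stood at 70.1 FPKM (68.0 to 72.3) in siHNRNPA1 cells and 86.5 FPKM (84.0 to 89.1) in sicontrol cells, a fold of -0.30. EPCAM-201 held 99.7% of the gene in siHNRNPA1 cells and 98.6% in sicontrol cells. EPCAM thus had the smallest change in transcript shares of the 8 genes compared.

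F11R (ENSG00000158769, chromosome 1, minus strand, 160995211 to 161021348) encodes the junctional adhesion molecule JAM-A. It stood at 28.9 FPKM (28.0 to 29.8) in siHNRNPA1 cells and 47.4 FPKM (46.3 to 48.5) in sicontrol cells, a fold of -0.69. The nearest genes in level, GC content and length had a median fold of -0.76, and after their subtraction F11R stood at 0.06. F11R-202 carried 91.9% of the gene in siHNRNPA1 cells and 100% in sicontrol cells. F11R-204 held 2.35 FPKM, from 97 estimated counts, in siHNRNPA1 cells and was listed at 0 in sicontrol cells. F11R-204 starts 252 bases later, and lacks 3191 bases of the 3' end and a 147-base coding exon (chr1:161000631-161000777, minus strand, GRCh38), which leaves 250 codons in place of 299. The exon is printed in capitals with 12 bases of F11R-202 on each side, because its absence tells the 2 transcripts apart.
F11R-202 exon: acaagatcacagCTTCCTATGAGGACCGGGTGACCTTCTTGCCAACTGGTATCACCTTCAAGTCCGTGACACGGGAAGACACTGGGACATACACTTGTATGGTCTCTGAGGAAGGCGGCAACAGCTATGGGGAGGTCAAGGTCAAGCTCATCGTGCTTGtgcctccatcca
Of the 50-base stretches of F11R-202, 39.1% also occur in transcripts of 198 other genes. The gene AL591806.3, which overlaps F11R on the same strand, stood at 0.021 FPKM in siHNRNPA1 cells and 0.102 FPKM in sicontrol cells.

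CD44 (ENSG00000026508, chromosome 11, plus strand, 35138870 to 35232402) encodes the hyaluronan receptor, whose extracellular stem is lengthened by a set of variable exons. It was low, at 2.63 FPKM (2.27 to 3.04) in siHNRNPA1 cells and 4.82 FPKM (4.15 to 5.57) in sicontrol cells, a fold of -0.68. Its estimated counts were 184 in siHNRNPA1 cells and 185 in sicontrol cells, so the log2 CPM ratio was -0.09 (-0.39 to 0.22). Most of the FPKM difference lay in a short partial transcript. CD44-234, of 584 bases, stood at 0.942 FPKM from 19 counts in siHNRNPA1 cells and 2.79 FPKM from 51 counts in sicontrol cells. As the transcript of CD44 with the highest FPKM, it also set the length and GC content for choosing the nearest genes. After their subtraction CD44 stood at -0.64, and a match by a longer CD44 transcript was not tried. CD44-202 was listed at 0 in siHNRNPA1 cells and stood at 0.507 FPKM in sicontrol cells, and CD44-236 stood at 0.355 FPKM in siHNRNPA1 cells and was listed at 0 in sicontrol cells.

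CD44 was below the 5 FPKM set for comparing shares, so its transcripts are described only. Transcripts that join the constant exons directly, without a variable exon, are called standard here. CD44-201, the full-length standard form of 361 codons, held 0.684 FPKM from 105 counts in siHNRNPA1 cells and 0.340 FPKM from 49 counts in sicontrol cells. Over all 3 standard transcripts the share of the gene's estimated counts was 57.6% (50.1 to 64.8) in siHNRNPA1 cells and 26.5% (20.3 to 33.5) in sicontrol cells. The 18 transcripts with a variable exon held 41.8% (34.6 to 49.3) of counts in siHNRNPA1 cells and 73.0% (66.0 to 79.2) in sicontrol cells. In FPKM the standard share was 26.2% in siHNRNPA1 cells and 7.04% in sicontrol cells. The counting intervals of the 2 libraries did not overlap, but the counts are few and the division of reads between 27 similar transcripts adds an error they do not cover. CD44-209 (493 codons) carries 3 variable exons of 102, 90 and 204 bases, and stood at 0.589 FPKM in siHNRNPA1 cells and 0.833 FPKM in sicontrol cells. The 90-base exon (chr11:35209965-35210054, plus strand, GRCh38) is printed in capitals with 12 bases of CD44-209 on each side as an example of what the standard form lacks.
CD44 variant exon: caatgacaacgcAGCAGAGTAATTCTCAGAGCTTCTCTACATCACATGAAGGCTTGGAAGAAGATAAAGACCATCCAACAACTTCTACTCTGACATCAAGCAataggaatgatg

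CD9 (ENSG00000010278, chromosome 12, plus strand, 6199715 to 6238271) encodes a tetraspanin, a small protein that spans the membrane several times and gathers integrins and immunoglobulin-type partners around it. It stood at 50.3 FPKM (48.2 to 52.5) in siHNRNPA1 cells and 73.3 FPKM (70.6 to 76.1) in sicontrol cells, a fold of -0.53, and -0.74 with the nearest genes subtracted. Its transcripts moved in opposite directions. CD9-202 stood at 40.8 FPKM from 1661 counts in siHNRNPA1 cells and 11.4 FPKM from 433 counts in sicontrol cells, a fold of 1.75. CD9-212 stood at 2.78 FPKM from 122 counts in siHNRNPA1 cells and 30.3 FPKM from 1233 counts in sicontrol cells, a fold of -3.05. CD9-201 stood at 5.71 FPKM in siHNRNPA1 cells and 20.9 FPKM in sicontrol cells, a fold of -1.71. The leading transcript of the gene was thus CD9-202 in siHNRNPA1 cells, with 81.1% of the FPKM against 15.5% in sicontrol cells. In sicontrol cells it was CD9-212, with 5.52% in siHNRNPA1 cells against 41.3% in sicontrol cells. The 3 remaining transcripts were also at least 2-fold lower in siHNRNPA1 cells.

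The 3 main CD9 transcripts differ at their 5' ends, at 1 base of a junction and by up to 46 bases at their 3' ends. CD9-202 has its own 177-base first exon, which starts 397 bases downstream of the start of CD9-201 and 481 bases downstream of that of CD9-212. Its annotated coding sequence has 159 codons, against 228 in CD9-201. CD9-212 holds 1 base more than CD9-201 at an exon junction, at chromosome 12 position 6235475, and has 182 codons. The junctions are printed on the plus strand of GRCh38 (chr12:6235310-6235493 for CD9-212 and chr12:6235310-6235494 for CD9-201, both spanning an intron). The capital marks the added base.
CD9-212 junction: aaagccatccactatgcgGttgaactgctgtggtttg
CD9-201 junction: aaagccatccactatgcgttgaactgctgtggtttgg
Reads that reach neither the ends of the transcripts nor this junction cannot tell the 3 transcripts apart, so their division by the authors' counting is an estimate. The deposited positions of CD9-201, CD9-202, CD9-203, CD9-204 and CD9-206 differ from those of the annotation used for these structures.

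PROM1 (ENSG00000007062, chromosome 4, minus strand, 15963076 to 16084378) encodes prominin-1, or CD133, a protein of membrane protrusions. It stood at 5.49 FPKM (5.11 to 5.89) in siHNRNPA1 cells and 16.5 FPKM (15.8 to 17.2) in sicontrol cells, which is 33.3% of the control level. The fold was -1.43, and 11% of all genes kept had a lower one. The leading transcript in siHNRNPA1 cells is long (4349 bases) and of low GC content (43.2%), and the nearest genes had a median fold of -1.20. After their subtraction PROM1 stood at -0.23. PROM1 and PODXL thus had folds of like size but differed in this respect.

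Within PROM1, 2 transcripts shared the gene almost equally in sicontrol cells. PROM1-207 held 0.034 FPKM from 5 counts in siHNRNPA1 cells and 7.31 FPKM from 908 counts in sicontrol cells. PROM1-206 held 5.29 FPKM from 763 counts in siHNRNPA1 cells and 7.27 FPKM from 979 counts in sicontrol cells, a fold of -0.39. PROM1-206 therefore had 96.4% of the gene's FPKM in siHNRNPA1 cells and 44.1% in sicontrol cells. By FPKM the leading transcript differed between the libraries, but by estimated counts PROM1-206 led in both. The same 856 codons are annotated for both transcripts. They differ by a noncoding first exon, of 401 bases in PROM1-206 and 68 bases in PROM1-207, whose starts lie 646 bases apart, and they share 3946 bases. The difference in shares therefore rests almost wholly on reads over the first exons. FGFBP2, which overlaps PROM1 on the same strand, stood at 0.051 FPKM in siHNRNPA1 cells and 0.15 FPKM in sicontrol cells.

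**Figure D3:**
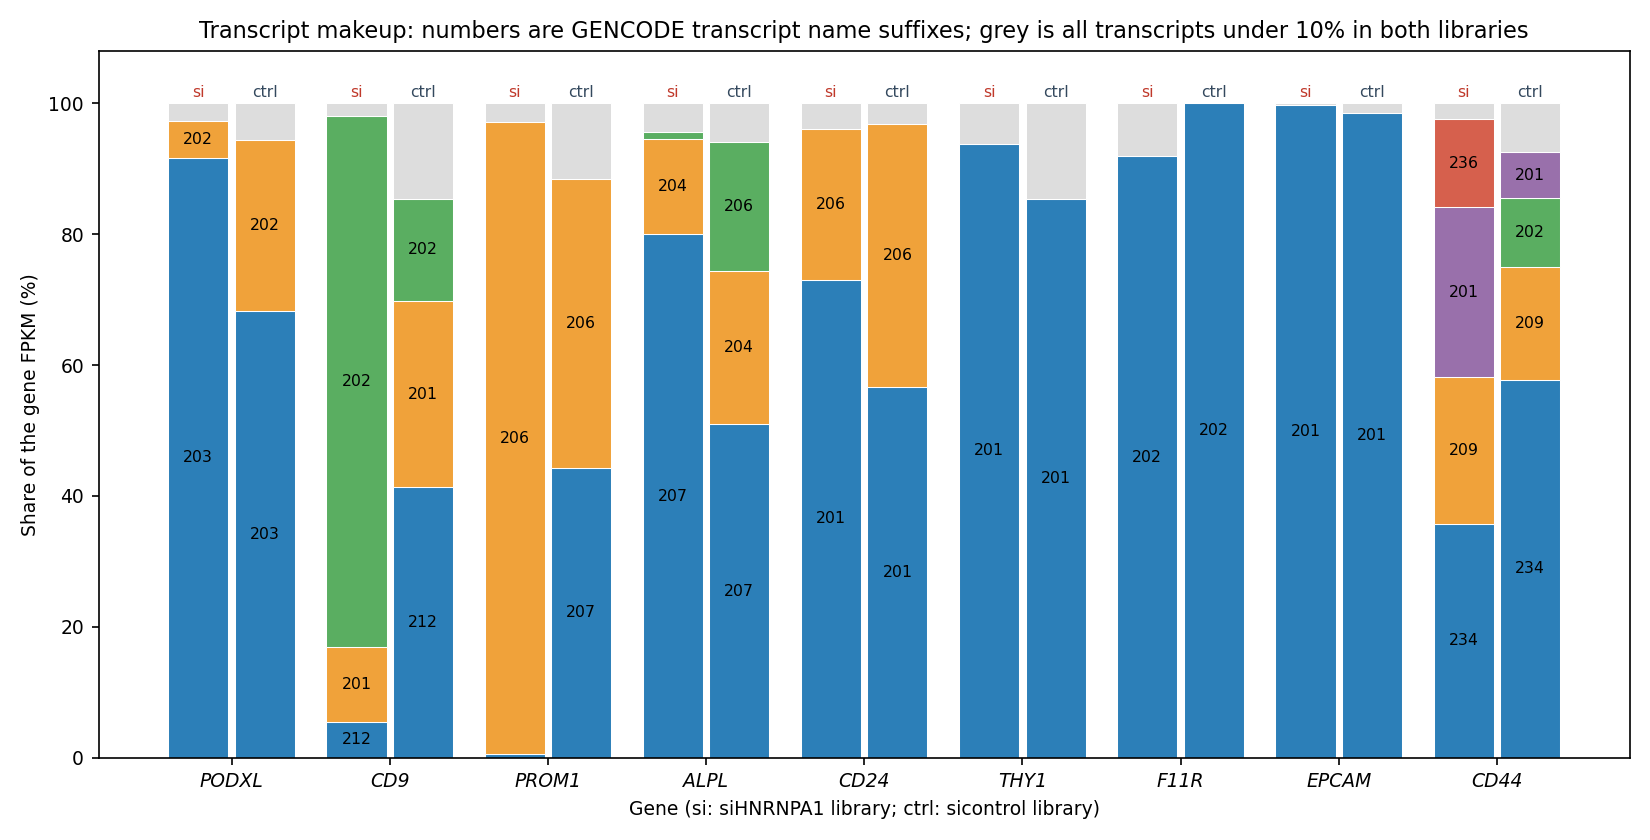
Share of the gene's FPKM held by each transcript, in percent, with a siHNRNPA1 bar beside a sicontrol bar for each of 9 genes; numbers inside the bars are the ends of transcript names (202 for CD9-202), which are given for transcripts that hold at least 10% of the gene in either library, and grey pools the rest. CD9-202 fills 81.1% of CD9 in siHNRNPA1 cells and 15.5% in sicontrol cells, and PROM1-207 fills 0.628% of PROM1 in siHNRNPA1 cells and 44.3% in sicontrol cells.

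ALPL (ENSG00000162551, chromosome 1, plus strand, 21509372 to 21578412) encodes tissue-nonspecific alkaline phosphatase. It was the only one of the 10 genes with a higher level in siHNRNPA1 cells as deposited, at 120.1 FPKM (117.6 to 122.7), against 84.1 FPKM (81.9 to 86.3) in sicontrol cells. The fold of 0.51 was below 2-fold. Its leading transcript is rich in GC (60.5%), the nearest genes had a median fold of 0.64, and after their subtraction ALPL stood at -0.13. ALPL-207 stood at 96.1 FPKM in siHNRNPA1 cells and 42.9 FPKM in sicontrol cells, a fold of 1.15. ALPL-206 stood at 1.31 FPKM in siHNRNPA1 cells and 16.5 FPKM in sicontrol cells, a fold of -2.93. ALPL-204 was nearly level, at 17.4 FPKM in siHNRNPA1 cells and 19.7 FPKM in sicontrol cells. ALPL-207 accordingly held 80.0% of the gene in siHNRNPA1 cells and 51.0% in sicontrol cells. As a share of estimated counts it held 79.7% (78.9 to 80.6) in siHNRNPA1 cells and 48.9% (47.6 to 50.2) in sicontrol cells. ALPL-203 was listed at 0 in siHNRNPA1 cells and had 165 counts in sicontrol cells.

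The ALPL transcripts differ in their coding sequences. ALPL-204 (524 codons) includes a 165-base exon at chr1:21553978-21554142 that holds its start codon, and ALPL-207 (469 codons) lacks it. ALPL-206 (447 codons) lacks it too, and also lacks a 116-base coding exon at chr1:21561097-21561212 that ALPL-204 and ALPL-207 hold. The coding part of the 165-base exon (chr1:21554082-21554142, plus strand, GRCh38) is printed because its absence tells ALPL-207 from ALPL-204, and capitals mark the start codon.
ALPL-204 first coding exon: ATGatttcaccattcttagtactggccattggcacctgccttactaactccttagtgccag

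THY1 (ENSG00000154096, chromosome 11, minus strand, 119417378 to 119424985) encodes CD90, a GPI-anchored protein of the immunoglobulin superfamily. It stood at 181.5 FPKM (179.0 to 184.0) in siHNRNPA1 cells and 232.5 FPKM (229.5 to 235.5) in sicontrol cells, a fold of -0.36 and of -0.70 after subtraction of the nearest genes. THY1-201 held 93.7% of the gene in siHNRNPA1 cells and 85.3% in sicontrol cells. The minor transcripts THY1-206 and THY1-209 were at least 2-fold lower in siHNRNPA1 cells. THY1-209 stood at 4.52 FPKM in siHNRNPA1 cells and 17.5 FPKM in sicontrol cells. Of the 50-base stretches of THY1-201, 15.4% also occur in transcripts of 1 other gene. USP2-AS1 and AP003396.5 overlap THY1 on the opposite strand. Without knowledge of the strand used in counting, reads from stretches shared with an opposite-strand gene cannot be told apart.

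SUSD2 (ENSG00000099994, chromosome 22, plus strand, 24181259 to 24189110) encodes a sushi-domain membrane protein used as a surface marker of naive human pluripotent cells. It was low, at 3.68 FPKM (3.34 to 4.05) in siHNRNPA1 cells and 3.99 FPKM (3.62 to 4.39) in sicontrol cells, a fold of -0.09. Its log2 CPM ratio was -0.10 (-0.30 to 0.10), so a difference was not detectable at this depth. The table lists 1 transcript, and no shares could be compared.

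Taking the transcripts of the 10 genes one by one, 41 were above 0 in siHNRNPA1 cells and 44 in sicontrol cells. Of the 31 with a mean of at least 1 FPKM, 14 (45.2%) were at least 2-fold lower in siHNRNPA1 cells, a call made for 23.4% of all transcripts. Another 3 (9.68%) were at least 2-fold higher, CD9-202, ALPL-207 and F11R-204, against 21.3% of all transcripts. Transcripts of a gene share reads and are not independent. The 14 lower transcripts belonged to PODXL, CD9, CD24, THY1, PROM1 and ALPL.

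Shares were compared in genes that had 2 or more transcripts and reached 5 FPKM in each library, which left 46 transcripts of 8 of the 10 genes. A difference of at least 20 percentage points was found in 7 transcripts (15.2%), against 10.7% of all 39113 transcripts compared. They lay in PODXL, CD9, PROM1 and ALPL, which is 4 of 8 genes, against 40.6% of all 5715 genes compared. With shares of estimated counts 5 transcripts passed, and neither of the 2 PODXL transcripts was among them, which left CD9, PROM1 and ALPL. The leading transcript differed between the libraries in CD9 and PROM1, 2 of 8 genes, against 28.7% of all genes compared. These shares were thus near the background, and they rest on 8 genes. In 7 of the 8 genes the leading transcript of siHNRNPA1 cells held a larger share of its gene than the leading transcript of sicontrol cells, F11R being the exception. Among all genes compared 56.5% did so. The median leading share was 91.8% in siHNRNPA1 cells and 62.5% in sicontrol cells for the 8 genes, and 73.8% in siHNRNPA1 cells and 69.5% in sicontrol cells for all genes compared.

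**Figure D4:**
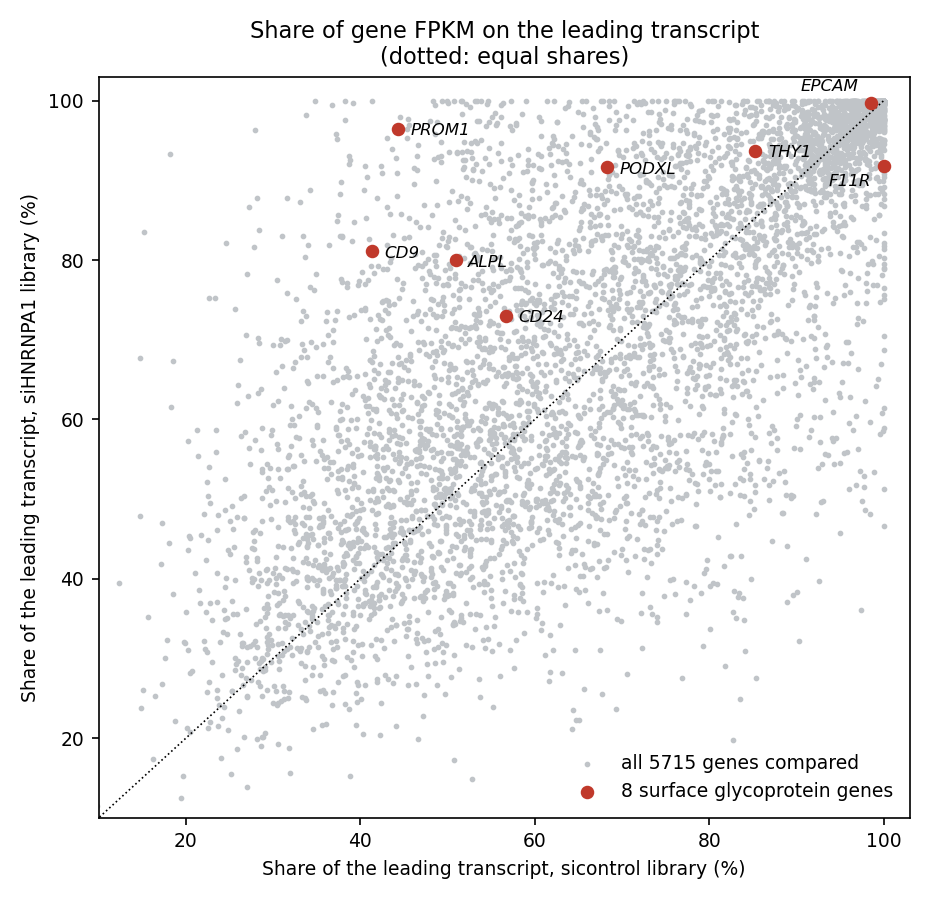
Share of the gene's FPKM held by the leading transcript, in percent, in the siHNRNPA1 library (vertical axis) and in the sicontrol library (horizontal axis), for all 5715 genes compared (grey) and 8 surface genes (red); equal shares lie on the dotted line. Of the red points 7 lie above the line, with PROM1 at 96.4% in siHNRNPA1 cells and 44.3% in sicontrol cells, and F11R lies below it.

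**Figure D5:**
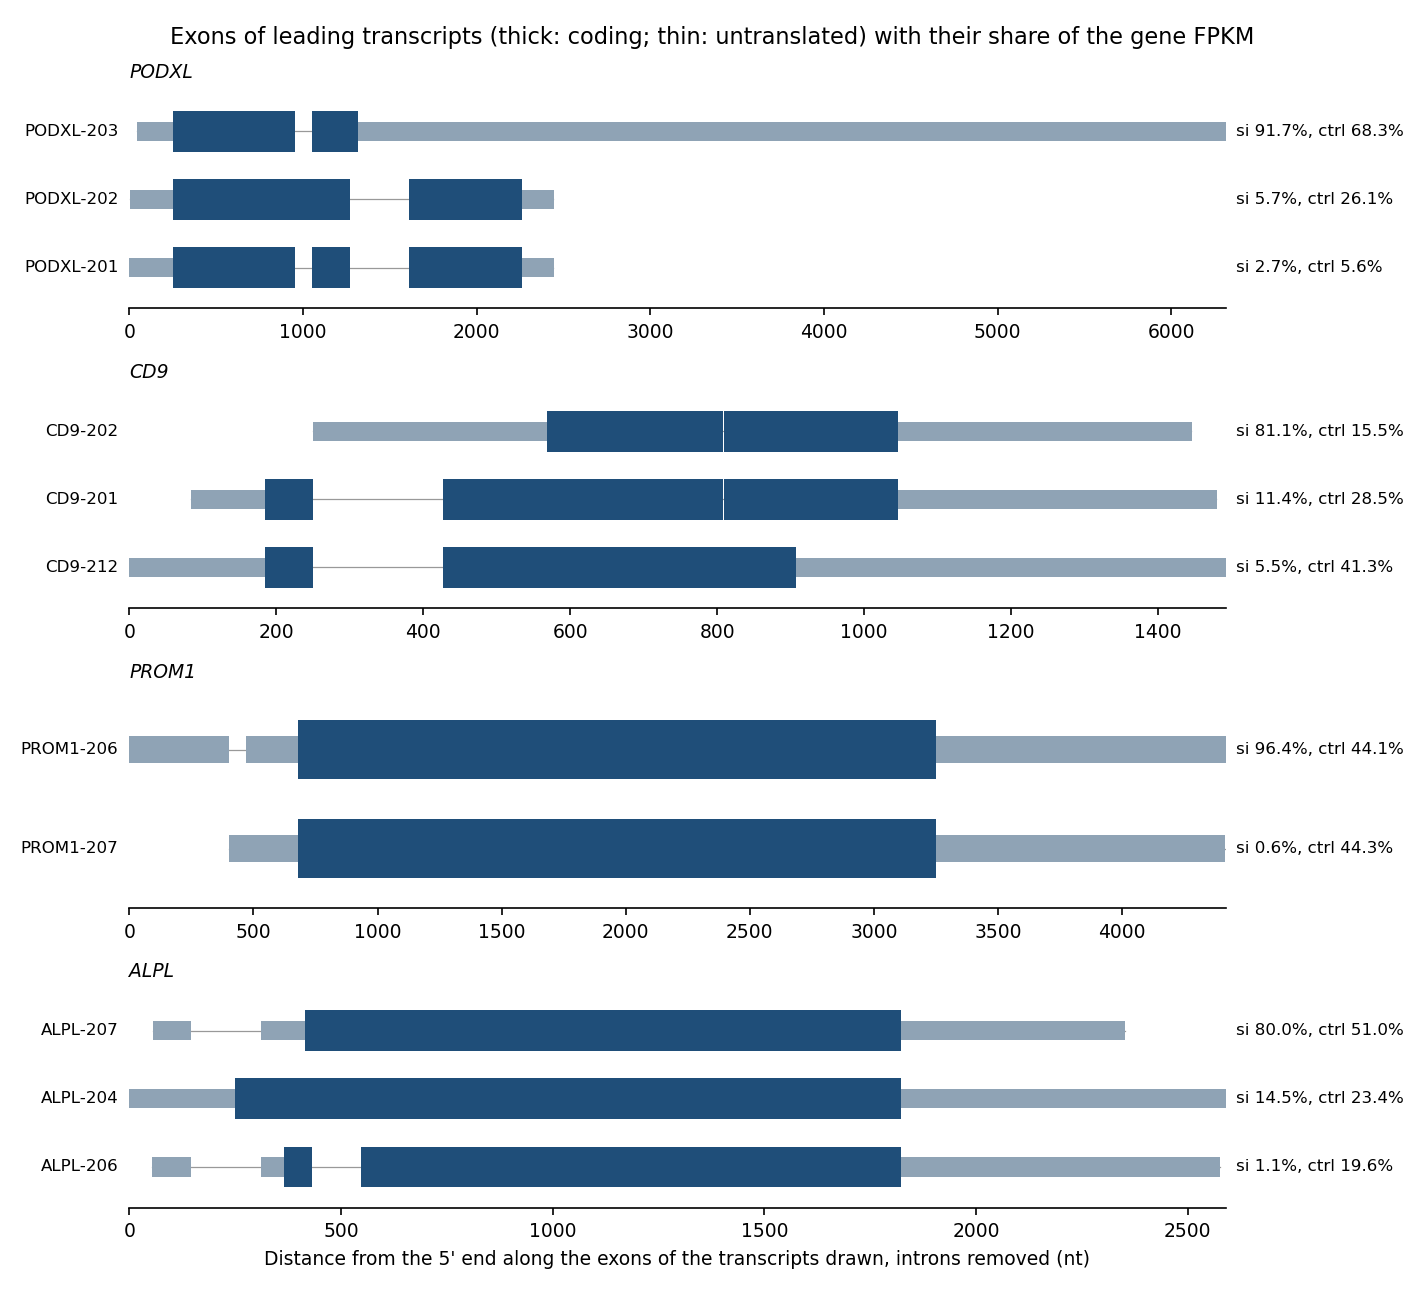
Exons of the main PODXL, CD9, PROM1 and ALPL transcripts, to scale in nucleotides from the 5' end with introns removed (thick bars are coding, thin bars noncoding, and lines stand for bases a transcript lacks), with each transcript's share of its gene's FPKM in siHNRNPA1 cells (si) and sicontrol cells (ctrl). PODXL-203, the leading PODXL transcript in both libraries, has 6170 bases, most of them noncoding, and PROM1-206 and PROM1-207 share their whole coding part.

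Genes that act with these glycoproteins were described from lists that were chosen with earlier results of these data known. The counts are to be read against all genes kept, of which 21.9% were at least 2-fold lower and 12.4% higher in siHNRNPA1 cells, and 8.35% lower and 8.11% higher after subtraction of the nearest genes. Of 8 measured cytoplasmic partners of podocalyxin and CD44, which tie them to the cortical actin, 4 were lower by 2-fold or more and none was higher, with a median fold of -0.92. The ezrin-family members RDX (0.770 FPKM in siHNRNPA1 cells and 12.1 FPKM in sicontrol cells) and MSN (54.8 FPKM in siHNRNPA1 cells and 152 FPKM in sicontrol cells) were among them. EZR, the family member that gave it its name, was level at 108.03 FPKM in siHNRNPA1 cells and 105.2 FPKM in sicontrol cells. The membrane skeleton genes ANK3 (fold -2.39) and EPB41 (fold -1.68) were the other two. After subtraction all 4 still passed, at -1.57 for RDX, -1.40 for ANK3, -1.30 for MSN and -1.20 for EPB41.

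Of 14 tetraspanins and tetraspanin partners, 5 were at least 2-fold higher and 2 lower in siHNRNPA1 cells, with a median fold of 0.57. CD81, the closest relative of CD9, stood at 198.4 FPKM in siHNRNPA1 cells and 77.7 FPKM in sicontrol cells. CD151, a partner of laminin-binding integrins, stood at 89.1 FPKM in siHNRNPA1 cells and 31.1 FPKM in sicontrol cells. TSPAN7 (fold -1.70) and PTGFRN (fold -1.26), an immunoglobulin-type partner of CD9, were lower. After subtraction of the nearest genes CD81 (0.59), CD151 (0.65) and PTGFRN (-0.70) no longer passed, TSPAN7 (-1.79) was the only gene lower and TSPAN14 (1.78), named for that count, the only one higher.

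Of 21 measured enzymes of the SSEA, TRA and H glycan epitopes and of other glycans, 6 were lower by 2-fold or more. Their list had a median fold of -0.37, and none was higher to that extent. The lowest folds were those of C1GALT1 (-1.74), which makes the core of mucin-type O-glycans, GCNT2 (-1.73), which branches poly-N-acetyllactosamine, B3GNT2 (-1.63), which extends it, and FUT8 (-1.34), which adds core fucose to N-glycans. After subtraction none of these 4 passed (C1GALT1 -0.32, GCNT2 -0.51, B3GNT2 -0.69 and FUT8 -0.26), and B4GALT1 (-1.01), a galactosyltransferase, was the only one of the 21 lower.

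Of 25 measured genes of GPI anchor synthesis and transfer, 5 were at least 2-fold higher and 2 lower. PIGQ (fold 1.65) and PIGC (fold 1.08), both of the enzyme that starts the anchor, PGAP3 (fold 1.54), which remodels it, and GPAA1 (fold 1.27), of the transamidase, had the largest folds. After subtraction PIGC (1.15) and PGAP3 (1.13) still passed, while PIGQ (0.77) and GPAA1 (0.49) did not. PIGM (1.88) and PIGW (1.48) then came to be at least 2-fold higher and PIGT (-1.81) lower.

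Of 15 shedding and intramembrane proteases and related genes, 3 were lower by 2-fold or more and 1 was higher. These were the membrane metalloproteases ADAM9 (fold -2.37), ADAM10 (fold -1.5) and ADAM17 (fold -1.47), and the gamma-secretase subunit PSENEN (fold 1.26). After subtraction ADAM9 (-1.19) still passed, and ADAM10 (-0.06), ADAM17 (-0.43) and PSENEN (0.89) did not, while RHBDF2 (-1.15), whose product helps to carry ADAM17 to the cell surface, came to be lower.

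Of 23 other measured surface antigens of pluripotent cells, 7 were lower by 2-fold or more, and 6 were higher to that extent. After subtraction 2 were lower and 3 higher. The complement regulator CD46 stood at 1.90 FPKM in siHNRNPA1 cells and 21.0 FPKM in sicontrol cells, and its fold after subtraction was -2.85. The receptor KIT (fold -2.05) was also lower, and stood at -1.04 after subtraction. The integrin subunits ITGB1 (fold -2.13) and ITGA6 (fold -1.68) were lower as deposited but no longer passed after subtraction, at -0.97 for ITGB1 and -0.36 for ITGA6. CD81 and CD151 stand in this list as well as in that of tetraspanins.

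The label of the cells was checked against pluripotent markers, all 10 of which were measured, with a median fold of -0.05. POU5F1 stood at 1355 FPKM in siHNRNPA1 cells and 864 FPKM in sicontrol cells, and its fold of 0.65 became -0.10 after subtraction. SOX2 (58.3 FPKM in siHNRNPA1 cells and 126.2 FPKM in sicontrol cells) and DPPA4 (118.6 FPKM in siHNRNPA1 cells and 345.7 FPKM in sicontrol cells) were at least 2-fold lower, a count of 2 that became 1 with median-ratio scaling and 1 with CPM. The other markers did not reach 2-fold. SALL4 (fold -0.37) was among them, as was LIN28A at 306.8 FPKM in siHNRNPA1 cells and 309.4 FPKM in sicontrol cells. After subtraction SOX2 (-1.26) and DPPA4 (-1.11) were still at least 2-fold lower, and no marker was higher to that extent. The highest markers were then L1TD1 (0.90), NANOG (0.86) and ZFP42 (0.72). Some of the 10 surface genes are also expressed by fibroblasts, THY1 and CD44 among them. Of 14 fibroblast markers 8 were measured, of which 3 were at least 2-fold lower and 1 higher. COL3A1, DCN and LUM were at 0 in both libraries. The list summed to 295.6 FPKM in siHNRNPA1 cells and 306.4 FPKM in sicontrol cells, most of which was TAGLN (203.6 FPKM in siHNRNPA1 cells and 125.0 FPKM in sicontrol cells) and VIM (37.6 FPKM in siHNRNPA1 cells and 83.2 FPKM in sicontrol cells). The collagen gene COL1A1 stood at 25.002 FPKM in siHNRNPA1 cells and 14.5 FPKM in sicontrol cells. The fold of COL6A3 was -1.55 and that of S100A4 was 1.12. After subtraction TAGLN stood at -0.16, COL1A1 at 0.63, COL6A3 at -1.04 and S100A4 at 0.96. The part of the fibroblast markers in the results for THY1 and CD44 was not tested.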

How the data were processed

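Messenger RNA of H9 cells was measured in 1 library per condition (siHNRNPA1 and sicontrol). Per the file headers, the authors deposited 3 values for each transcript, namely a count, TPM and FPKM. FPKM times length, scaled and rounded up, gave the deposited count (tolerance 0.05) for 90.3% of siHNRNPA1 counts and 90.5% of sicontrol counts between 1 and 3, so these were handled as estimated counts. For the aligner, counting program and annotation, the names are not stated in the sources used here. Mouse builds (GRCm38, mm10) appear in the submitters' processing notes, although the identifiers are human. All 74 transcripts were found in GENCODE release 29 (GRCh38), 61 at the same position. The other 13 are 5 of CD9 and 8 of CD44. Structures and sequences come from that annotation and genome. The table's 6 further columns of per-sample values match no labelled sample and were not used.

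FPKM was summed per Gene ID. Folds used a pseudocount of 1 FPKM and genes with a mean of at least 1 FPKM, and calls used 2-fold and, for shares, 20 percentage points. With 1 library per condition, p-values were not computed. All 10 genes are described, with each transcript of at least 10% of its gene in either library. Of each other list the 4 measured genes with the largest absolute fold are named, or all where fewer were measured. Transcripts and genes outside that rule, and the leading share and CD44 classes, were chosen after their values were seen. The members and lists were chosen with earlier results of these data known. Alternatives were another pseudocount or filter, TPM, median-ratio scaling, CPM, protein-coding transcripts, transcripts of at least 600 bases and subtraction of the 100 nearest genes. The computation used Python 3.11.15 with pandas 2.3.3, numpy 2.4.6, scipy 1.17.1 and matplotlib 3.10.9, and was tested on simulated data.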

Additional observations from a re-analysis of the deposited data

How the results depend on the processing

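No paired analysis was possible because the labels tie 1 library to each condition. The count of surface genes at least 2-fold lower was 2 and became 1 after subtraction of the nearest genes. The median fold of the 10 genes was -0.45. It was -0.36 with a pseudocount of 5 FPKM, -0.60 with TPM, -0.29 with median-ratio scaling, -0.26 with CPM and -0.32 after subtraction of the nearest genes. The median of all genes was -0.28 with TPM. The count of genes whose leading transcript differed was 2 and became 1 with shares of estimated counts. Of the folds of single surface genes under the alternatives, 34 stayed within a margin and 36 moved by more. The margin was the distance from the centre to an end of the counting interval of the gene's log2 CPM ratio. No call turned to the opposite direction. The signs of ALPL (-0.13) and F11R (0.06) turned after subtraction of the nearest genes and that of SUSD2 (0.03) with median-ratio scaling. PODXL stood at -3.40 over protein-coding transcripts alone. Over the other lists and settings, 66 counts stayed within 1.5 times and 22 did not. The alternatives for transcript counts, shares of transcripts and lists were in part chosen after seeing the data. Depth limits CD44 and SUSD2 most.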

Other observations

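Most markers of other lineages were below a mean of 1 FPKM. Of 10 neural ectoderm markers, 5 were measured and 3 of them were at least 2-fold higher in siHNRNPA1 cells, against 12.4% of all genes. With TPM, or after subtraction of the nearest genes, 2 were. NES, an intermediate filament of neural progenitors, stood at 127.0 FPKM in siHNRNPA1 cells and 56.0 FPKM in sicontrol cells, and TUBB3, a neuronal tubulin, at 85.2 FPKM in siHNRNPA1 cells and 20.4 FPKM in sicontrol cells. PAX6, the defining transcription factor of the list, was listed at 0 in siHNRNPA1 cells and stood at 0.009 FPKM in sicontrol cells, and 5 of the 10 markers were not measured. Of 10 mesoderm and endothelial markers 3 were measured, and the receptor KDR stood at 8.02 FPKM in siHNRNPA1 cells and 32.0 FPKM in sicontrol cells. Its fold of -1.87 became -0.92 after subtraction and no longer passed. TBX6 (fold -0.42) was lower and NKX2-5 (fold 0.54) higher, both by less than 2-fold. Of 10 endoderm markers 1 was measured, CER1, at 3.61 FPKM in siHNRNPA1 cells and 2.13 FPKM in sicontrol cells. Among the fibroblast markers FN1, the gene of fibronectin, stood at 7.20 FPKM in siHNRNPA1 cells and 59.6 FPKM in sicontrol cells.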
